A study of Mus musculus with 24 samples.

Results

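The B cell genes described here are 8 genes that mark B lymphocytes, Ms4a1, Cd79a, Cd79b, Cr2, Cd22, Pax5, Blk and Fcer2a. They were taken by symbol from the 16118 protein-coding genes listed for the depot, and each of the 8 matched 1 row. Poly(A) RNA was sequenced from the subcutaneous inguinal fat of 24 mice, 1 library per mouse, in 6 groups of 4. Males and females were taken at postnatal day 21 (p21), or 1 week later at day 28 (p28). The p28 mice had either been weaned at p21, which is standard weaning (SW), or had stayed with their dam, which is delayed weaning (DW). The titles of the p21 libraries say p28, while their descriptions and age labels say p21, and the latter were followed. The descriptions of the p21 mice also carry the SW label. Mice are named here by the animal number in the descriptions, which differs from that in the title for p21 female 56. The RNA is of depot tissue, no cell sorting is named, and the labels give no strain, diet, litter or genetic modification, and do not say whether the lymph node in the depot was kept or removed. They do not name separate litters or cages, so p-values measure the spread between these 24 mice, and litter mates cannot be told apart from unrelated mice.

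B lymphocytes recognise antigen through a surface antibody coupled to a signalling pair, Cd79a and Cd79b, and they gather in follicles of lymph nodes and spleen. Mouse inguinal fat surrounds a lymph node, and RNA of the whole depot can contain that node's lymphocytes as well as lymphocytes scattered through the fat. Among the 8 genes, Pax5 is the transcription factor that keeps B cell identity, Blk is a Src family kinase of the receptor pathway, Cd22 dampens receptor signals, Cr2 (CD21) and Fcer2a (CD23) are follicular surface receptors, and Ms4a1 encodes CD20. In bulk tissue, fewer B cells and less RNA per B cell cannot be told apart.

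Levels are the authors' normalised values, read numbers divided by 1 factor per library. Differences between groups are differences of mean log2(value + 1), a scale on which the differences of genes with low values come out too small. They were tested with limma across 16005 genes, and a gene was called where its Benjamini-Hochberg adjusted p-value was under 0.05.

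Stretches upstream of the starts of Cd79a and Cd22 are shown for sequence context, because only their windows held a match to the motifs searched. RefSeq promoters (GRCm38.p6) matched 5 of the 8 genes, Cd79a, Cr2, Cd22, Pax5 and Fcer2a, with 7 starts in all. The 250 bases before each start were searched on both strands for ATTTGCAT (the octamer), CCCNNGGG (an EBF-type motif) and GAGGAA (an Ets-type motif), which do not overlap one another in the matches found. The stretches printed lie outside every exon of the GENCODE mouse release M21 annotation, on the same build, and capitals mark the matches. Cd79a covers chr7:24897247-24897380 on the plus strand and Cd22 covers chr7:30879029-30879176 on the minus strand.
Cd79a: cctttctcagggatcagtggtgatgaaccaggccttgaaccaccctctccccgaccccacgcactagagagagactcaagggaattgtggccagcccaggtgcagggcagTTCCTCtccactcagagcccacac
Cd22: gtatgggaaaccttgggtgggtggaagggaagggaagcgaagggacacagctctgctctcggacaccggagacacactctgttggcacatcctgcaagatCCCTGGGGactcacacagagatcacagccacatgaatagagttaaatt
In Cd79a the match is GAGGAA read on the opposite strand, from base -140 to base -135 before the start. In Cd22 the match is to CCCNNGGG, from base -48 to base -41. No other match was found in the 7 windows. Over all 32851 RefSeq promoters of the same length, 1.60% held the octamer, 11.8% CCCNNGGG and 23.3% GAGGAA, so a match describes the letters and is no measured binding.

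The reads recovered in the listed genes ranged from 57600711 to 302145813 per library. P21 male 53 had the fewest reads and 14054 genes detected, against up to 16066 in others. A further set of 3 libraries stood apart: p21 male 37 and DW females 82 and 83. In all 3 the ratio of Cd79a to Ms4a1 was 0.555 to 0.864, and it was 1.21 to 2.42 in the other 21. Over all genes tested, their deviation from the average library ran against the GC content of transcripts (Spearman's rho across genes -0.58 to -0.41), against -0.23 to 0.50 in the others. Medians of the B cell genes are given with and without these 4 libraries below. The deposited tissue label was matched by adipocyte genes, with Adipoq, the fat cell hormone adiponectin, at 787 to 1527 and Fabp4, a fatty acid carrier, at 9997 to 17456. Genes of skeletal muscle varied widely between libraries, with a mean log2(value + 1) over 6 genes of 0.63 to 9.84.

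All 8 B cell genes were read in all 24 mice. The lowest recovered count was 999 reads, for Blk in p21 female 30, and the lowest for Cd22 was 8521. Per kilobase of exon (GENCODE M21 gene models), Cd79a stood highest with a mean of 54.2, followed by Fcer2a at 36.7, Cd22 at 30.5 and Cd79b at 29.7. Pax5 at 11.8, Ms4a1 at 8.26, Blk at 6.42 and Cr2 at 5.50 formed the lower part of the order. The order of Cd22 over Cd79b held in 17 of 24 mice and that of Blk over Cr2 in 19, while the other 5 neighbouring pairs kept their order in 22 to 24 mice. Values below are per gene, not per length, and compare mice with one another.

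Cd79a and Cd79b encode the Igα and Igβ chains that pass the signal of the B cell receptor into the cell. The deposited rows place Cd79a on chromosome 7 (24596806 to 24601622, plus strand) and Cd79b on chromosome 11 (106202167 to 106205588, minus strand). Cd79a values were 39.8, 64.7, 115 and 123 in p21 males and 59.01, 61.6, 63.4 and 70.01 in p21 females. After standard weaning they were 79.03, 81.5, 108 and 126 in males and 69.7, 70.6, 73.00 and 111 in females. After delayed weaning they were 59.8, 74.7, 79.1 and 88.3 in males and 43.02, 50.4, 80.4 and 105 in females. The 4 p21 females lay close together, the p21 males spanned nearly the whole range of the series, and the 2 lowest DW females were 83 and 82. The lowest value of all 24 was in p21 male 37 and the highest in SW male 124. Cd79b values were 29.6, 32.5, 55.5 and 87.99 in p21 males and 31.5, 33.9, 35.2 and 37.1 in p21 females. At p28 the SW mice had 41.3, 42.1, 50.1 and 55.9 (males) and 27.9, 31.3, 37.1 and 52.96 (females). The DW mice had 32.3, 38.8, 41.3 and 43.4 (males) and 38.5, 45.8, 47.4 and 50.2 (females). P21 male 53 was the highest of all mice for Cd79b, well above the next, and the p21 females again lay close together.

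Cr2 encodes complement receptor CD21, carried by mature B cells and by follicular dendritic cells, and Cd22 a lectin that binds sialic acid and inhibits the receptor. Cr2 lies on chromosome 1 (194819119 to 194859024, minus strand) and Cd22 on chromosome 7 (30564827 to 30579767, minus strand) in the deposited rows. For Cr2, p21 males had 34.9, 41.9, 48.5 and 64.7 and p21 females 22.99, 25.1, 43.1 and 46.8. Standard weaning gave 36.3, 39.7, 48.4 and 61.04 in males and 26.8, 33.8, 50.6 and 62.2 in females, and delayed weaning gave 45.9, 51.04, 51.4 and 52.7 and 38.8, 42.7, 44.99 and 56.5. The DW males were the tightest group for Cr2 and the SW females the widest, with mouse 75 high and mouse 81 low. For Cd22, p21 males had 127, 136, 160.0 and 259 and p21 females 68.2, 125, 159 and 174. SW males had 146, 148, 205 and 207 and SW females 87.5, 113, 142 and 199, while DW males had 167, 167, 185 and 206 and DW females 90.1, 102, 144 and 174. Cd22 had the widest range of the 8 genes, 3.80-fold from p21 female 30 to p21 male 53, and the 2 low DW females were 82 and 83.

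Ms4a1 encodes CD20, a membrane protein of B cells from the precursor stage onward, and Fcer2a the low-affinity receptor for IgE. The deposited positions are chromosome 19 (11227039 to 11243605, minus strand) and chromosome 8 (3731737 to 3744175, minus strand). Ms4a1 stood at 39.9, 46.02, 53.3 and 76.7 in p21 males and at 29.9, 38.5, 48.9 and 52.3 in p21 females. In SW mice it was 43.9, 46.03, 57.5 and 64.9 (males) and 30.2, 41.4, 54.8 and 67.4 (females), and in DW mice 45.3, 48.6, 52.2 and 58.1 (males) and 39.3, 47.8, 66.5 and 77.5 (females). The 2 highest DW females for Ms4a1 were 83 and 82, the same mice that were lowest for Cd79a, and 83 was the highest of all 24. Fcer2a stood at 80.00, 95.1, 129.7 and 214 in p21 males and at 61.4, 98.3, 106 and 113 in p21 females. In SW mice it was 104, 113, 117 and 159.5 and 65.5, 85.2, 117 and 141, and in DW mice 121, 124, 124 and 134 and 79.1, 101, 108 and 129, males first. P21 male 53 was the highest for Fcer2a and p21 female 30 the lowest, and the 4 DW males were the tightest group.

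Blk and Pax5 act inside the cell. Blk lies on chromosome 14 (63610285 to 63654486, minus strand) and Pax5 on chromosome 4 (44524757 to 44710487, minus strand) as deposited. Blk measured 12.1, 13.4, 21.2 and 23.8 in p21 males, 7.99, 15.4, 16.05 and 18.6 in p21 females, 14.3, 17.2, 19.6 and 27.5 in SW males and 10.6, 13.9, 14.6 and 22.8 in SW females. In DW males it was 16.9, 17.3, 20.4 and 21.9 and in DW females 15.4, 17.4, 18.5 and 18.8. Its highest mouse was SW male 124, its lowest p21 female 30, and the DW females were its tightest group. Pax5 measured 96.9, 103, 123 and 193 in p21 males, 52.2, 77.7, 113 and 117 in p21 females, 106, 117, 135 and 139 in SW males and 65.3, 72.1, 96.4 and 118 in SW females. In DW males it was 102, 118, 123 and 124 and in DW females 54.5, 75.8, 86.5 and 109. At each age and weaning the Pax5 mean was above in males, yet the 2 sexes' ranges overlapped each time. In GENCODE M21, Ms4a1 and Cd22 each overlap 1 antisense gene and Pax5 overlaps 4 other genes, 3 of them on the opposite strand. The strand setting of the counting is not given in the sources used here, so reads from those partners cannot be told apart from the genes' own.

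**Figure D1:**
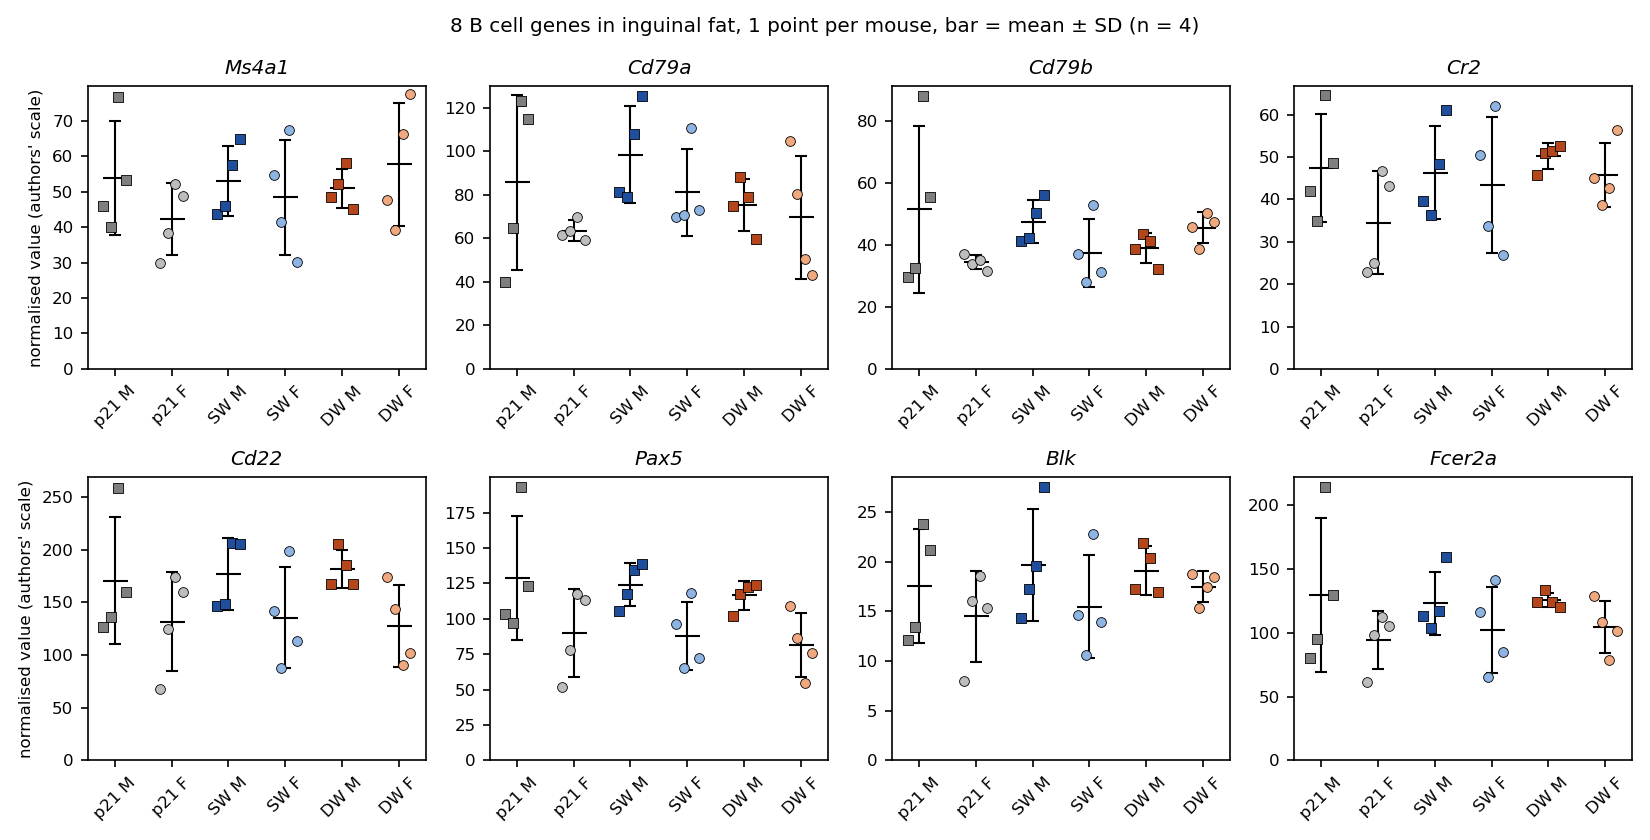
Normalised values (vertical axis, authors' scale, from 0) of the 8 B cell genes in the 6 groups, 1 point per mouse (squares males, circles females), with the mean and SD of 4 mice as bars. Every group overlaps its neighbours in the order of means, and p21 male 53 is the top point in the p21 males for all 8 genes.

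The groups were ordered by mean for each of the 8 genes. All 5 pairs of groups next to each other in the order overlapped, as did 13 to 15 of the 15 possible pairs of groups. The highest group mean was 1.36-fold (Blk and Ms4a1) to 1.58-fold (Pax5) the lowest. P21 females had the lowest mean for 6 of the 8 genes, and for Cd22 and Pax5 it was DW females. P21 males came first for Cd79b, Pax5 and Fcer2a, SW males for Cd79a and Blk, DW males for Cr2 and Cd22, and DW females for Ms4a1. In the 9 comparisons tested, the 2 groups overlapped for every gene but Cd79b from p21 to p28 in DW females, where the highest p21 female (37.1) lay under the lowest DW female (38.5). The share of all genes whose groups overlap or separate is not given here, so the overlaps are described and not read as a result.

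Delayed against standard weaning at p28 asks whether staying with the mother changes the depot. None of the 8 B cell genes was called by limma, in males or in females, and none had an unadjusted p under 0.05 by limma, edgeR or DESeq2, where 0.256% and 1.27% of all genes tested were called. In males the median change of the 8 genes was -0.03 (all genes 0.00), and 3 of 8 had a positive sign. The most negative male value was Cd79a, at 75.5 ± 11.9 in DW against 98.5 ± 22.3 in SW mice (mean ± SD, n = 4 each). Its change was -0.37 (SE 0.29, 95% interval -0.97 to 0.23, limma adjusted p = 0.920). The difference of Ms4a1 in males was -0.04, with an interval of -0.54 to 0.46, and that of Fcer2a was 0.05, with an interval of -0.49 to 0.58. The 8 intervals of the males all held 0, with lower ends at -0.97 to -0.37 and upper ends at 0.22 to 0.65, so differences of such sizes are within the error of 4 mice a group.

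In females the median weaning difference of the 8 genes was 0.10 (all genes -0.02). Cd79b had the most positive value, 0.31 (SE 0.24, interval -0.18 to 0.80, limma adjusted p = 0.459), and Cd79a the most negative, -0.28 (interval -0.88 to 0.32). Without DW females 82 and 83 the signs of 4 genes turned. Cd79a went from -0.28 to 0.20, Cd22 from -0.07 to 0.29, Pax5 from -0.11 to 0.18 and Ms4a1 from 0.26 to -0.10, and no gene was called. The median without them was 0.19, with 7 of 8 positive. The labels name no batch. The p28 animal numbers go from 73 to 87 without a gap, apart from SW male 124. That mouse was the highest SW male in the mean of the 8 genes. The numbers were cut here into 2 runs, 73 to 80 and 81 to 87, with mouse 124 in neither. No label gives this cut. Within the runs the median DW minus SW difference was 0.19 (2 DW and 1 SW mice) and 0.00 (2 and 2) in males, and 0.14 (2 and 3) and 0.21 (2 and 1) in females. Over both runs the male median without mouse 124 was 0.10, with 5 of 8 positive. The female median was 0.29 without SW female 75 and -0.04 without SW female 74.

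From p21 to p28 the B cell genes again gave no call with limma, edgeR or DESeq2, and none had an unadjusted p under 0.05 with any of the 3 tools. With standard weaning 0 of 8 were called in males, where 11.9% of all genes were, and 0 of 8 in females, where 11.6% were. The males' median change was 0.01 and the females' 0.09, against 0.01 and 0.01 over all genes tested. Cd79a had the most positive value in both sexes, 0.31 in males (interval -0.29 to 0.91) and 0.32 in females (interval -0.28 to 0.92). The male value of Ms4a1 was 0.00 (interval -0.50 to 0.50) and that of Pax5 -0.01 (interval -0.52 to 0.50). Without p21 male 53 the males' median was 0.30 and all 8 signs were positive, with Cd79a at 0.53 and still 0 calls. Without p21 male 37 it was -0.07, with 1 of 8 positive, and without p21 male 38 it was -0.11. The females' median was -0.09 without SW female 75, with 2 of 8 positive, -0.05 without p21 female 30 and 0.25 without SW female 74. Under edgeR with TMM that male median was -0.04, with 3 of 8 positive.

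With delayed weaning, 0 of 8 were called from p21 to p28 in males (15.0% of all genes) and 0 of 8 in females (12.1%). The median in males was 0.01 (all genes 0.02), 0.22 without p21 male 53 and -0.12 without p21 male 37. In females it was 0.23 (all genes 0.00), and it was 0.05 without p21 female 30 and 0.31 without DW females 82 and 83. Cd79b, whose groups did not overlap, had a change of 0.39 (interval -0.10 to 0.88, limma adjusted p = 0.301). Cr2 was at 45.7 ± 7.60 in DW females against 34.5 ± 12.2 in p21 females, a change of 0.45 (interval -0.06 to 0.96, limma adjusted p = 0.244). The value of Ms4a1 was 0.42 (interval -0.08 to 0.92), and 0.06 without females 82 and 83. The value of Cd79a without these 2 mice went the other way, from 0.04 to 0.53. The standard and delayed weaning comparisons share the p21 mice of each sex, so their values are not independent of one another.

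Males against females gave the B cell genes their largest median differences of the 9 comparisons at p21 and after standard weaning, with no gene called. At p21, 0 of 8 passed the test where 0.356% of all genes did. At p28 it was 0 of 8 after standard weaning (3.54% of all genes) and 0 of 8 after delayed weaning (2.46%). The sign was positive, meaning a male value above the female one, in 8 of 8 genes at p21, 8 of 8 in SW mice and 6 of 8 in DW mice. The medians were 0.39, 0.32 and 0.17, against -0.02, -0.01 and 0.01 over all genes. Those 8, 8 and 6 signs were also found with edgeR under TMM or DESeq2 size factors and with DESeq2, where the medians were 0.45 to 0.46, 0.32 to 0.34 and 0.10 to 0.12. With the T cell mean of each mouse as a covariate the signs were 3, 6 and 6 of 8 and the medians -0.04, 0.10 and 0.27. Single mice moved the medians as well. At p21 the median was 0.56 without male 37, with 4 of 8 genes at an unadjusted limma p under 0.05 and 0 called, 0.14 without male 53 and 0.24 without female 30. In SW mice it was 0.18 without male 124 and 0.51 without female 75, and in DW mice 0.27 without female 76, with 0 called in each. The 8 genes vary together from mouse to mouse, so their signs are not 8 separate observations. The 12 T cell genes listed further on had 12, 12 and 5 positive signs in the same comparisons, with medians of 0.37, 0.17 and -0.16 and 0 of 12 called in each.

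Pax5 had the lowest p-values of the sex comparisons. Its level was 129 ± 43.99 in p21 males and 90.1 ± 30.9 in p21 females, 124 ± 15.3 and 88.01 ± 24.2 in SW mice, and 117 ± 10.03 and 81.5 ± 22.7 in DW mice. The difference was 0.53 at p21 (interval 0.02 to 1.04), 0.52 in SW mice (0.01 to 1.04) and 0.55 in DW mice (0.04 to 1.06). The limma p-values before adjustment were 0.0437, 0.0466 and 0.0368, and no other of the 8 genes was under 0.05 in any of the 9 comparisons, while the adjusted values were 0.573, 0.524 and 0.225. With edgeR (TMM), 2, 1 and 0 of the 8 genes had an unadjusted p under 0.05 in the 3 sex comparisons, and with DESeq2 2, 1 and 1, with 0 called by either. Without p21 male 53 the p21 value of Pax5 was 0.32. Without DW females 82 and 83 the DW value of Pax5 was 0.26 and that of Cd22 went from 0.55 to 0.19. Tests of whether the weaning or the age difference itself differed between the sexes called 0 of 8 genes for weaning (0.0187% of all genes) and 0 of 8 for age after standard weaning (1.03%). Cd79b had the most negative value for weaning, -0.59 (interval -1.28 to 0.11, limma adjusted p = 0.802).

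**Figure D2:**
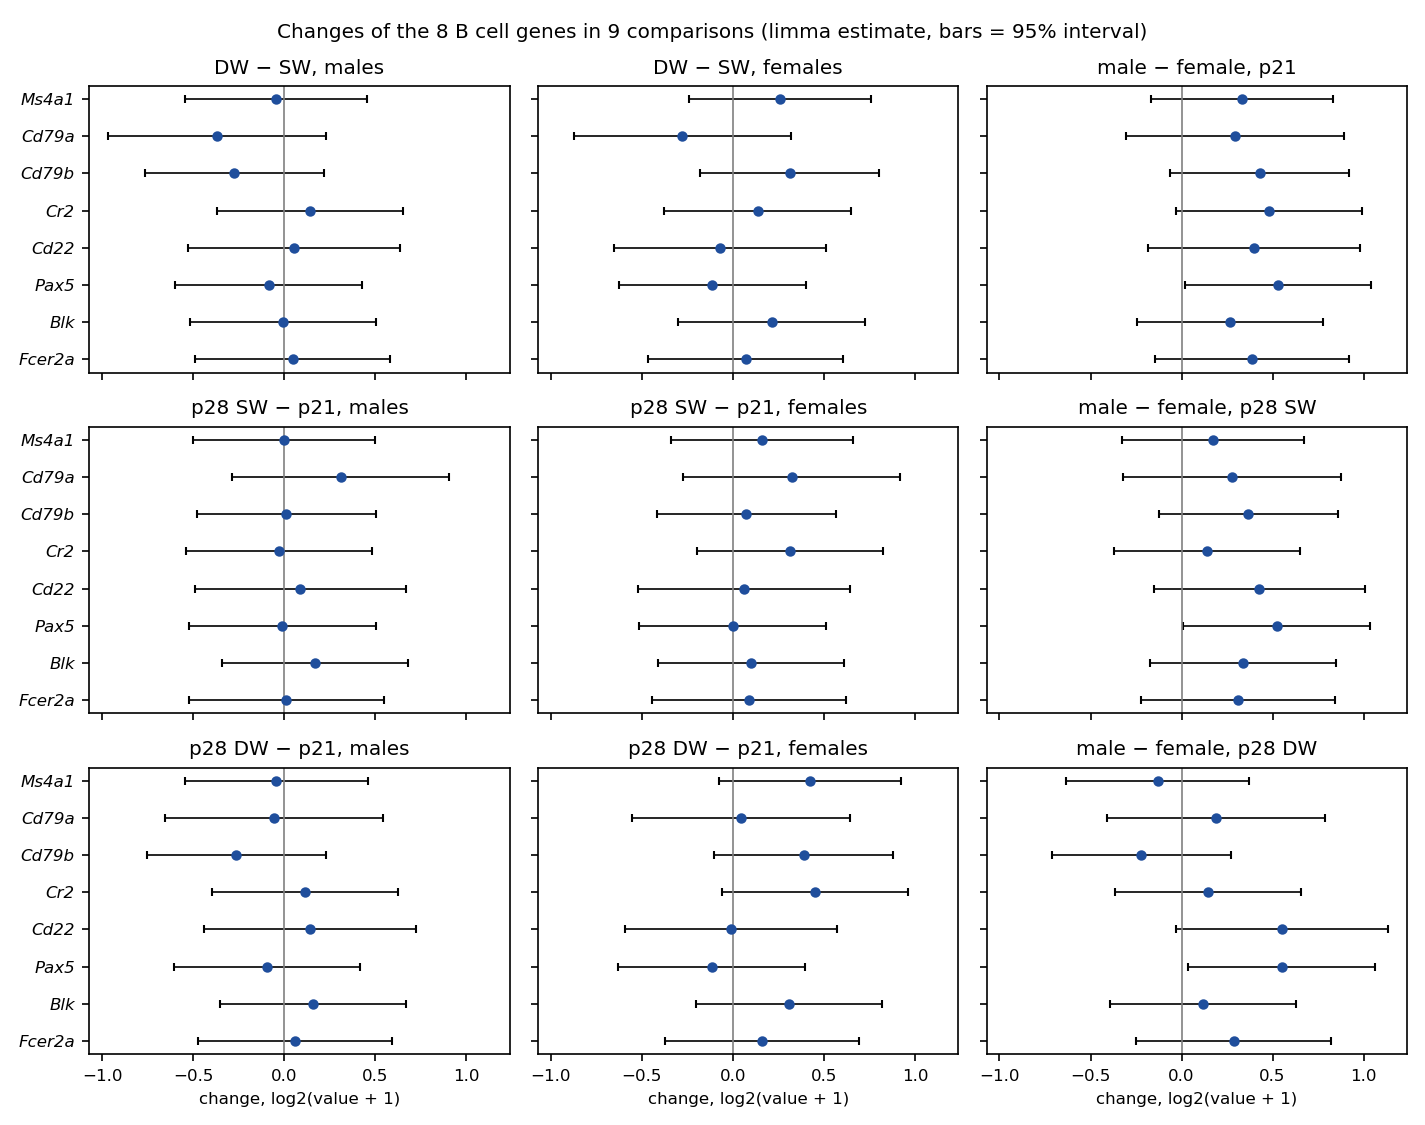
Change of each B cell gene (horizontal axis, log2(value + 1)) in 9 comparisons, with limma's estimate as a point and its 95% interval as a bar. The intervals reach past 0 except for Pax5 in the 3 panels of males against females, and no gene passes the test after adjustment.

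Mice of 1 group differed more in the B cell genes than they did in most genes. The residual SD within groups was 0.36 (Cd79b) to 0.44 (Cd79a) on the log2 scale, which lies at percentiles 88.8 to 95.2 of the genes tested, whose median was 0.21. That ranking was not matched for level. It includes genes with low values, whose differences come out too small on this scale. The range over the 24 mice was 2.60-fold for Ms4a1 and 3.80-fold for Cd22. P21 male 53, SW female 75, p21 female 55, SW male 124 and DW male 80 were above their group mean for 8 of 8 genes. P21 males 37 and 38, SW males 78 and 84 and SW females 74 and 81 were above it for 0 of 8. Over the 8 genes, SW female 75 stood 0.46 to 0.62 above its group means and p21 male 53 stood 0.47 to 0.90 above its own. The DW males were the tightest group, with the 4 mice at -0.11 to 0.12 from the group mean over the 8 genes.

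**Figure D3:**
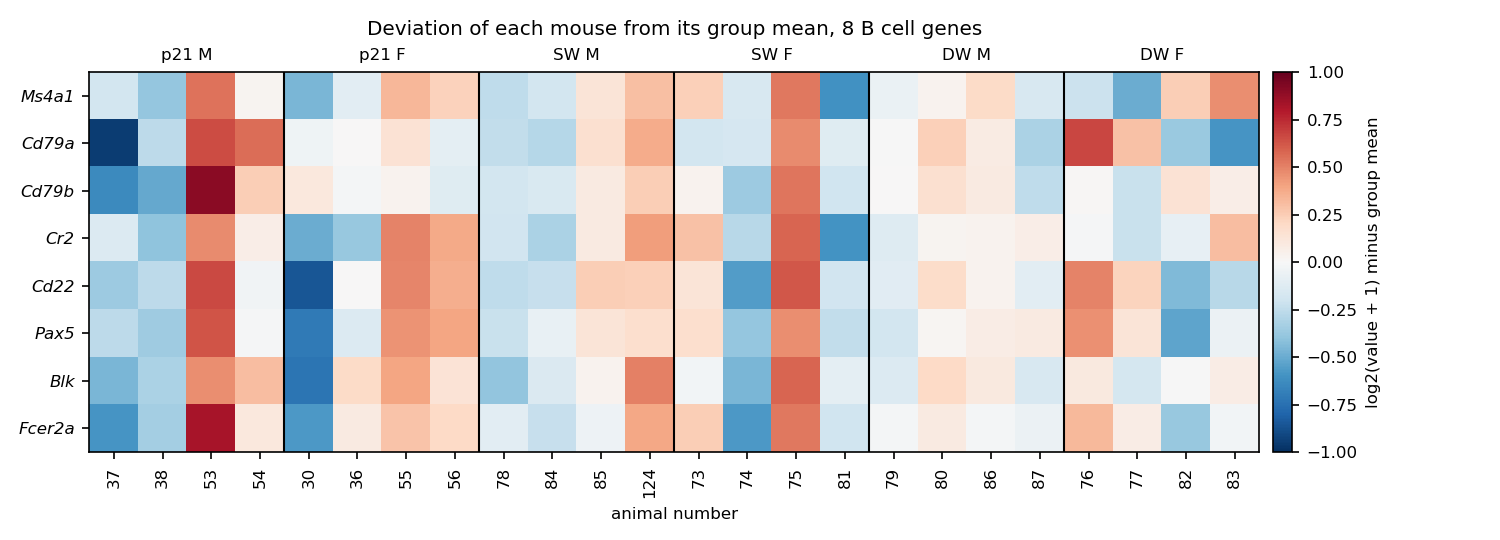
Deviation of each mouse (columns, by animal number within group) from its group mean for the 8 B cell genes (rows), on the log2(value + 1) scale from -1 (blue) to 1 (red). Columns are mostly of 1 colour, as in SW female 75 at 0.46 to 0.62, whereas DW females 82 and 83 mix red for Ms4a1 with blue for Cd79a.

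The 28 pairs of B cell genes were correlated over the 24 mice after centring on group means, so that no group difference enters. All 28 Pearson correlations were positive, 0.22 to 0.96 with a median of 0.71, and Spearman's rho was 0.22 to 0.95. By permutation of mice within groups (100000 draws, two-sided, Benjamini-Hochberg over the 28 pairs), 26 pairs passed for Pearson and 23 for Spearman. Cd22 and Pax5 were the closest pair, with r = 0.96, rho = 0.95 and a permutation p of 1e-05, the smallest the draws can give (adjusted 9.33e-05). Ms4a1 and Cd79a were the loosest pair, with r = 0.22 and rho = 0.22 (permutation p = 0.404 and 0.39, the same after adjustment as the highest of the 28). Leaving out p21 male 53 and p21 female 30, the 2 mice farthest from the median of the 8 genes' mean, the range of r was 0.07 to 0.92, the median 0.66, and 22 pairs passed. Leaving out DW females 82 and 83 instead, r was 0.52 to 0.96, the median 0.81, and 28 of 28 passed, with Ms4a1 and Cd79a at 0.62. Mice 82 and 83 had been set apart by the ratio of Cd79a to Ms4a1. The rise for that pair therefore follows from the choice of mice and is no separate evidence.

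The loosest pair is the one whose ratio set 3 libraries apart. Ms4a1 and Cr2 have the lowest GC content of the 8 genes, 40.6% and 41.4% in their longest GENCODE M21 transcript, while the other 6 have 50.6% to 54.9%. Among the 4 DW females, Ms4a1 was 39.3, 47.8, 66.5 and 77.5, with 66.5 in mouse 82 and 77.5 in mouse 83. Cd79a was 50.4 and 43.0 in the same 2 mice, against 104.5 and 80.4 in mice 76 and 77. Mice 82 and 83 thus differed from 76 and 77 by 0.71 for Ms4a1, -0.96 for Cd79a, -0.72 for Cd22 and -0.59 for Pax5 on the log2 scale. After each library was corrected for its trend with GC content these were 0.37, -0.68, -0.60 and -0.54. The correction did not shrink every difference, since that of Fcer2a went from -0.40 to -0.30 and that of Cr2 from 0.23 to -0.09, but that of Cd79b went from 0.21 to 0.45 and that of Blk from 0.08 to 0.30. With that correction the 28 correlations were 0.49 to 0.96, and that of Ms4a1 with Cd79a 0.58. The share of mitochondrially encoded reads was 13.2% to 16.6% in p21 male 37 and DW females 82 and 83 and 13.2% to 25.5% in the others. The part of RNA quality in these values was not tested.

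**Figure D4:**
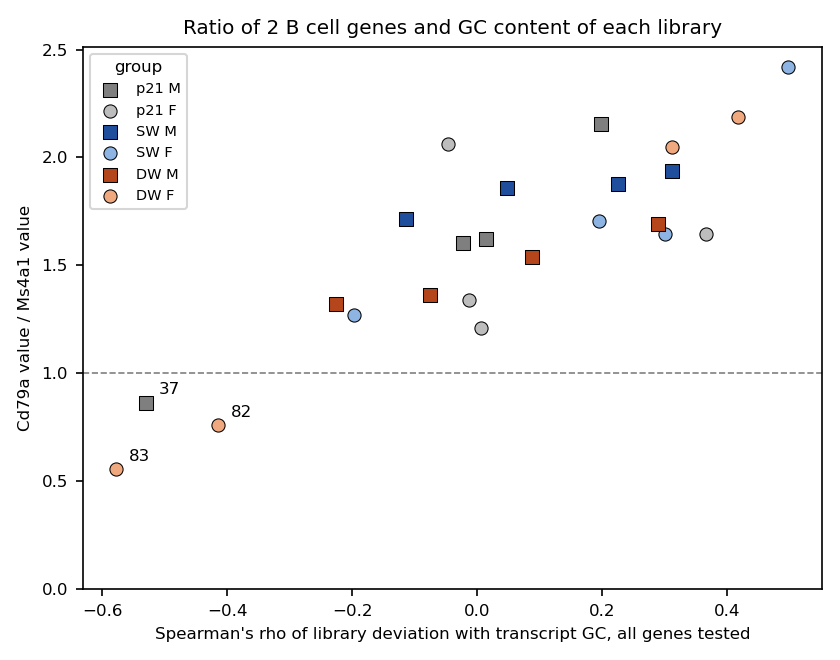
Ratio of the Cd79a value to the Ms4a1 value (vertical axis) against Spearman's rho across all genes between a library's deviation and transcript GC content (horizontal axis), 1 point per mouse. P21 male 37 and DW females 82 and 83 lie at ratios of 0.555 to 0.864 and the other 21 mice at 1.21 to 2.42.

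Other genes of B cells, in 3 lists by role, were rarely called as well. The lists hold 13 genes of receptor signalling, 11 transcription factors and 18 surface and follicle genes, and the lists share a member. Their means over each list correlated with the mean of the 8 genes within groups at r = 0.97, 0.90 and 0.99 over 24 mice, as a description, since all lists come from the same libraries. In the 2 weaning comparisons 0 of the 13, 0 of the 11 and 0 of the 18 genes were called, and likewise in the 3 sex comparisons. In the 4 age comparisons, taken as SW males, SW females, DW males and DW females, the signalling genes had medians of 0.06, 0.23, 0.10 and 0.21, the transcription factors 0.07, 0.07, 0.07 and 0.10, and the surface genes 0.01, 0.18, -0.09 and 0.23. Of the 13, 0, 1, 0 and 1 were called, of the 11, 0, 0, 1 and 1, and of the 18, 0, 0, 0 and 1. The shares called over all genes tested were 11.9%, 11.6%, 15.0% and 12.1%. Lyn, a Src family kinase also found in myeloid cells, rose in females with standard weaning (0.37, limma adjusted p = 0.0129) and with delayed weaning (0.46, limma adjusted p = 0.00358). Ralgps2 rose in females with delayed weaning (0.64, limma adjusted p = 0.0290). Ebf1, a factor of B cell development that adipocyte precursors also express, fell with delayed weaning in males (-0.56, limma adjusted p = 0.00864) and in females (-0.70, limma adjusted p = 0.00191). These 3 genes are named because they were called, after their values were seen.

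Within the 3 lists a few genes did not follow the 8. Ebf1, at 123 to 308, correlated with their mean at r = -0.45, and Cd81, a tetraspanin of many cell types, at r = -0.03. Several markers of later B cell stages had low values, while other genes of the germinal centre and plasma cell lists did not. Bcl6 of the germinal centre list ranged from 32.4 to 138. Irf4 and Xbp1 of the plasma cell list ranged from 27.5 to 123 and from 83.8 to 231. Rgs13 and Mef2b of germinal centres were at most 0.411 and 0.428, and Jchain, Mzb1 and Tnfrsf17 of plasma cells at most 6.32, 0.454 and 0.606, with the lowest library at 0 for each of the 5. Jchain had group means from 0.533 in p21 males to 2.53 (SD 2.60) in SW females. Of 8 genes each in the germinal centre and plasma cell lists, 5 and 5 reached a mean log2(value + 1) of 1. The means over all 8 genes of each list correlated with the 8 B cell genes at 0.33 and -0.21. From p21 to p28, S1pr2, Tnfrsf17 and Sdc1 rose in SW and DW females, Fas in DW females, and Derl3 in SW and DW males, all named after their values were seen. Tnfrsf17 and Derl3 did so at values of at most 0.606 and 1.33. Sdc1, a surface marker of plasma cells that epithelium also carries, went from 10.1 in p21 females to 25.9 in SW females (1.28, limma adjusted p = 1.49e-06) and 15.04 in DW females. In the same females 5 of 7 mammary epithelial genes rose after standard weaning (11.6% of all genes tested were called) and 1 of 7 after delayed weaning (12.1%). The part of epithelium in the value of Sdc1 was not tested.

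Likeness to the 8 genes was measured over 24 mice for the 13077 genes whose mean log2(value + 1) reached 1. Of these, 181 (1.384%) had a within-group r above 0.8 with the mean of the 8 genes, and 29 were above 0.9. The 10 most alike were Fcrl1 (0.97), Spib (0.96), Blnk (0.96), Cxcr5 (0.95), Siglecg (0.95), H2-DMb2 (0.94), H2-DMb1 (0.94), Bcl11a (0.94), Tec (0.93) and Ffar1 (0.93). Cxcr5 is the receptor that draws B cells into follicles, Blnk an adaptor and Tec a kinase of receptor signalling, Spib and Bcl11a are transcription factors, and Siglecg is a relative of Cd22. Of the 10, Siglecg, H2-DMb1, Tec and Ffar1 were in none of the lists. The 5 least alike were Gpc3 (-0.87), Gap43 (-0.87), Adipor2 (-0.85), Sumf1 (-0.85) and Mfap5 (-0.84), of which Adipor2 is an adiponectin receptor and Mfap5 a microfibril protein of connective tissue. Without p21 male 53 and p21 female 30 the first 10 were at 0.89 to 0.96 and the last 5 at -0.89 to -0.74.

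T cell genes, which share the lymph node with B cells, followed the 8 genes within groups and differed from them with age. The mean over 12 T cell genes correlated with the mean of the 8 B cell genes at r = 0.85 and rho = 0.86 within groups (r = 0.81 without mice 53 and 30). From p21 to p28 with standard weaning in males, 2 of 12 T cell genes fell and none rose, and with delayed weaning 4 of 12 fell and none rose. In females the counts were 0 of 12 with standard and 1 of 12 with delayed weaning. Over all genes tested the shares called were 11.9% and 15.0% in males and 11.6% and 12.1% in females, standard weaning first. The T cell counts are not read as an excess over these shares. Cd3e, a chain of the T cell receptor complex, went from 92.00 in p21 males to 47.5 in DW males (-0.92, SE 0.20, limma adjusted p = 0.00494) and to 54.3 in SW males (-0.73, limma adjusted p = 0.0213). Cd3g fell in the same 2 comparisons, by 1.03 and by 0.78, and Cd3d and Cd8b1 fell in DW males by 0.71 and 0.74. Cd3e also fell in DW females, by 0.69. The T cell list's medians were -0.50, -0.36, -0.58 and -0.23 in SW males, SW females, DW males and DW females, where those of the 8 B cell genes were 0.01, 0.09, 0.01 and 0.23. These counts rest on single libraries, and those over all genes tested moved with single libraries too. With 1 mouse left out, 1150 to 1723 of all genes were called in SW males and 1394 to 1603 in SW females. In DW mice these numbers were 1236 to 2555 in males and 1071 to 3123 in females. The T cell counts are given next without the all-gene count of each setting. In SW males the count was 1 of 12 without p21 male 53, SW male 78 or SW male 84, 6 without SW male 124, and 5 once DW females 82 and 83 were left out of the shared fit. In DW males it was 2 without p21 male 53 or DW male 87 and 7 without DW females 82 and 83. In SW females it was 1 without mouse 75, and in DW females 0 without mouse 36, 55, 82 or 83 and 3 without mouse 76.

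The distance between the 2 lists is the mean of the 8 B cell genes minus the mean of the 12 T cell genes in each mouse, on the log2 scale. It was 0.24 to 0.91 in the 8 p21 mice (median 0.64) and 0.81 to 1.39 in the 16 p28 mice (median 1.21). In p21 males it was 0.24, 0.59, 0.79 and 0.91, and in p21 females 0.39, 0.62, 0.66 and 0.82. SW males had 1.21 to 1.28, SW females 1.02 to 1.28, DW males 1.09 to 1.39, and DW females 0.81 and 0.86 in mice 83 and 82 and 1.08 and 1.22 in mice 76 and 77. Every p28 mouse other than these 2 was above every p21 mouse, with 1.02 to 1.39 in those 14. With the T cell mean of each mouse as a covariate in the fit, calls appeared among the B cell genes in the age comparisons. Ms4a1 and Blk were called in SW males, Ms4a1, Cr2 and Blk in SW females and in DW males, and these 3 and Cd79b in DW females, by 0.51 to 0.95 and always higher at p28 (limma adjusted p = 0.00489 to 0.0364). The share of all genes called in that fit is not given here, so these calls have no background beside them. The T cell mean itself differs between the ages, so these values are differences in B cell genes at an equal T cell level and not in the depot.

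**Figure D5:**
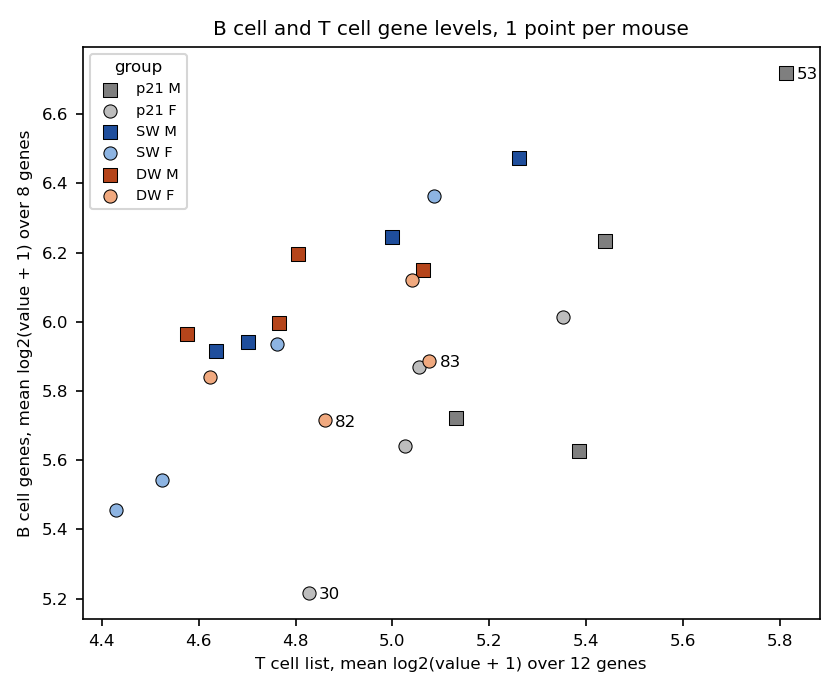
Mean log2(value + 1) of the 8 B cell genes (vertical axis) against that of 12 T cell genes (horizontal axis), 1 point per mouse, coloured by group. At a like B cell level the p21 mice (grey) lie mostly to the right of the p28 mice, at a distance between the lists of 0.24 to 0.91 against 0.81 to 1.39.

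Genes of lymph node stroma and of high endothelial venules, the vessels through which lymphocytes enter a node, also followed the B cell genes, with the mean of 10 genes at r = 0.88 and rho = 0.83 within groups (r = 0.84 without mice 53 and 30). Cxcl13, the chemokine of B cell follicles, ranged from 21.9 to 108 over the mice and correlated at 0.89. Ccl21a, a chemokine of the T cell zone, ranged from 130 to 525 and correlated at 0.64. Glycam1, a ligand for lymphocyte homing, ranged from 262 to 1746, and at 0.40 was among the loosest. From p21 to p28, 3 of the 10 genes fell in SW males, 0 of 10 were called in SW females, and 1 of 10 fell in DW males and in DW females, where the list's medians were -0.39, -0.06, -0.37 and -0.23. Of all genes tested, 11.9%, 11.6%, 15.0% and 12.1% were called in these comparisons. Chst4, which sulphates homing ligands, went from 11.1 in p21 males to 4.45 in SW males (-1.11, limma adjusted p = 0.00171) and fell by 1.02 in DW males and 0.68 in DW females. In SW males the count was 1 of 10 without p21 male 53 or SW male 78, in SW females 2 without mouse 75, and in DW males 3 without p21 male 37 or 38. In DW females it was 0 without mouse 36, 55, 56, 82 or 83, 2 without mouse 77 and 3 without mouse 76. Without both DW females 82 and 83 the counts were 3, 1, 3 and 0 of 10. The counts over all genes tested also moved with the mouse left out, as given above for the T cell genes.

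Genes of other cell types were called with age where the 8 B cell genes were not. Of 7 macrophage genes, 5 rose in SW males, 5 in SW females, 7 in DW males and 5 in DW females from p21 to p28, and none fell, with medians of 1.01, 1.17, 1.16 and 1.03. The shares of all genes called were 11.9%, 11.6%, 15.0% and 12.1% in the same order. Lyz2, lysozyme, rose from 186 to 331 in SW males (0.82, limma adjusted p = 0.00394). The macrophage list's mean correlated with that of the 8 genes at r = -0.23 within groups. Dendritic cell and natural killer cell genes correlated at 0.66 and 0.62, and genes of lymphatic endothelium at -0.63. Adipocyte genes correlated at -0.42, and at -0.07 once mice 53 and 30 were left out. Of 6 skeletal muscle genes, 6 rose from p21 to p28 in SW males and 6 in DW males, and 0 were called in females, with a list mean at r = -0.29 with the 8 genes. Mammary epithelial genes were at -0.05 and erythroid genes at 0.12. The part of lymph node in each dissected depot was not tested against a weight or an image of the node, which the labels do not give.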

How the data were processed

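The signal values were deposited by the authors as 1 table, per the file headers 1 column per mouse. Per the submitters' processing notes, fastp, HISAT2, featureCounts and DESeq2 1.38.3 were used and mm10 is named, with no roles stated. The coordinates are printed as deposited, since they do not match the GRCm38 gene models and the table names no build. Of 16208 rows, 90 repeats of a gene were dropped, leaving 16118 genes. Each value is a read number divided by 1 factor per library, because 100% of values were whole multiples of the library's smallest value, within 0.01 reads. Total recovered reads were 57600711 to 302145813.

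Values were tested as log2(value + 1) with limma 3.58.1 (lmFit, eBayes with a variance trend) in R 4.3.3. All 24 mice entered 1 fit with 6 group means and no covariate. Genes needed enough recovered reads (edgeR's filterByExpr, minimum count 10), which left 16005, and all 8 B cell genes passed. P-values were adjusted by Benjamini-Hochberg over these genes, with a threshold of 0.05. Correlations and levels were computed with Python 3.11.15, numpy 2.4.6, scipy 1.17.1 and pandas 2.3.3. GC content and exon lengths came from the GENCODE M21 gene models on GRCm38. The GC correction subtracted, per library, a lowess curve (span 0.3) of its deviations on GC content, known for 99.9% of the genes tested.

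Alternatives were edgeR 4.0.16 (TMM, or DESeq2 size factors) and DESeq2 1.42.0 on the recovered reads, pseudocount 0.1, no filter, a value of at least 1 in 4 samples, only the compared groups, no variance trend, the T cell list or the run of animal numbers as covariate, and leaving out each mouse. Leaving out mice 82 and 83, these with 37, or 53, and the GC correction, were added after seeing the data. From p21 to p28 with standard weaning in males, edgeR with TMM called 1801 genes and DESeq2 2562. The scripts were tested on simulated data. Named genes are the 8, genes of lists with high levels, and the 10 most and 5 least alike. Others were named after their values were seen. Not all are marked as such where they appear, among them Cd3d, Cd8b1, Chst4, Rgs13, Mef2b, Jchain and Mzb1. The members, lists and tests were chosen with earlier results of these data known. Some genes of the lists are not reported here by name.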

Additional observations from a re-analysis of the deposited data

Results flagged for a closer look

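Cd79a in SW female 75 lay far from the other SW females. Its log2(value + 1) was 6.81, from a value of 110.9, where the other 3 had 69.7 to 73.0. The gap to its nearest neighbour, as a share of the group's range, passed the limit of Dixon's test at the 95% level for 4 mice. The other 7 B cell genes were also highest in this mouse among the SW females, without passing that limit. Of 54 groups of values looked at, 1 passed, and chance passes about 1 in 20. Without this mouse no B cell gene was called in any comparison.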

How the results depend on the processing

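None of the 8 B cell genes was called in any of the 11 comparisons under limma, edgeR or DESeq2, nor under another filter, pseudocount, scaling or GC correction, nor when any 1 mouse was left out (0 to 0 calls). The T cell mean as a covariate was the exception, with 2 B cell genes called with age in SW males, 3 in SW females, 3 in DW males and 4 in DW females. Under it the change of Ms4a1 in DW males went from -0.04 to 0.75. The counts over all genes under this covariate are not given singly and enter the second range of each bracket below. No paired analysis was possible because the groups share no animal numbers, and each mouse gave 1 library.

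Counts over all genes were 1901 with age in SW males (1150 to 1723 leaving out a mouse, 656 to 2979 elsewhere), 1860 in SW females (1394 to 1603, 1434 to 2783), 2395 in DW males (1236 to 2555, 540 to 3913) and 1938 in DW females (1071 to 3123, 495 to 2461). With weaning they were 41 in males (10 to 42, 29 to 127) and 204 in females (45 to 1996, 1 to 295). Between sexes they were 57 at p21 (18 to 99, 5 to 115), 567 in SW mice (484 to 558, 407 to 674) and 394 in DW mice (263 to 1829, 256 to 848), with 3 (0 to 8, 0 to 3) and 165 (115 to 196, 4 to 246) for the interactions. With 4 mice a group and a residual SD of 0.36 to 0.44, the intervals of the B cell genes are wide. Each of the 8 genes had at least 999 reads in every library, and the library with the fewest reads in all, p21 male 53, was the highest of the 24 for 5 of them. The part of depth in the spread was not tested.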
